A study of Mus musculus with 21 samples.

Results

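The genes described here are the 8 mouse genes of MHC class II antigen presentation that the count table was searched for by symbol: *Cd74*, *H2-Aa*, *H2-Ab1*, *H2-Eb1*, *H2-DMa*, *H2-DMb1*, *H2-DMb2* and *Ciita*. All 8 were found among 47643 genes, and all 8 were among the 14801 that passed the filter on low counts. RNA was sequenced from 7 populations of myeloid progenitors sorted from the bone marrow of C57/B6 mice, with 3 libraries each. All were negative for lineage markers and SCA-1 and positive for C-KIT and CD34. Common myeloid progenitors (CMPs) were CD16/32 negative and were sorted in bulk, as CD62L-neg CMPs (CD62L-low in the sample labels) and as CD62L-high CMPs. Granulocyte-monocyte progenitors (GMPs) were CD16/32 positive and were sorted in bulk and as CD62L-neg, CD62L-int (also labelled CD62L-low) and CD62L-high GMPs. CD62L is a surface receptor of leukocyte homing. No treatment or genetic change is given for any population. The bulk populations include cells of the CD62L fractions, so bulk and sorted libraries are not samples of separate cell types. The sorts rest on surface protein and their CD62L limits were set as shares of the population.

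MHC class II molecules present peptides from the endosome to CD4+ T cells. They are pairs of an alpha and a beta chain (I-A from *H2-Aa* and *H2-Ab1*, I-E with the beta chain from *H2-Eb1*), and they travel with the invariant chain CD74, which fills the groove and routes them to the endosome. There the H2-DM proteins exchange the last fragment of the invariant chain for peptide. CIITA is the co-activator that turns on these genes by binding a set of factors assembled at their promoters, and it is expressed mainly in dendritic cells, B cells and macrophages or after interferon gamma.

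Total counts per library were 6145834 to 15263573. In bulk CMP replicate 2, 61.0% of the counts fell on the 3 gene models *Gm42418*, *Gm26917* and *Gm23935*, as did 41.1% in CD62L-high GMP replicate 1 and 22.4% to 31.7% elsewhere. Members' levels in these 2 libraries are given below, and the counts of called members were repeated without both. Levels are given as CPM, counts scaled by TMM to 1000000 per library. In bulk samples such as these, fewer cells that express a gene and less of its RNA per cell cannot be told apart.

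Of the members, 6 lie in the class II region of chromosome 17 (GRCm38, 34119541 to 34316674), in the order *H2-DMa*, *H2-DMb2*, *H2-DMb1*, *H2-Ab1*, *H2-Aa* and *H2-Eb1*. Stretches before the start of 3 members are shown, because class II promoters are known to carry an X box, bound by RFX and CREB, followed by a Y box, bound by NF-Y. Sequences are from RefSeq promoter windows (GRCm38.p6), 5′ to 3′ on the gene's own strand. Capitals mark GNAAC, the core of an RFX site, ATTGG, the Y box, and in *H2-Aa* TGACGTCA, which holds TGACG, the core of the X2 box, once on each strand, the matches overlapping.

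*H2-Aa* (chr17:34287847-34287931, minus strand): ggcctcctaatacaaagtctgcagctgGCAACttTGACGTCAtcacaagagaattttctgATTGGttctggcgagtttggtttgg
*H2-Eb1* (chr17:34305748-34305832, plus strand): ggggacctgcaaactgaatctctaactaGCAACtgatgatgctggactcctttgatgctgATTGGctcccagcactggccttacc
*H2-DMb2* (chr17:34145099-34145183, plus strand): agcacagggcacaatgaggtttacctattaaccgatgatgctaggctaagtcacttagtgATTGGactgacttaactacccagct

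In *H2-Aa* the RFX core started 81 bases and the Y box 48 bases before the gene's RefSeq start, and in *H2-Eb1* they started 91 and 59 bases before it. The stretch of *H2-Aa* lies between genes, that of *H2-Eb1* within the antisense gene model *Gm20513*, and that of *H2-DMb2* within the gene's wider GENCODE limits, outside annotated exons. The promoter of *H2-DMb1* held the same order at 94 and 61 bases. *H2-DMb2* held the Y box at 90 bases but no RFX core 25 to 50 bases before it, and neither of the 2 windows of *H2-DMa* held the ordered pair. The ordered pair was also in the windows of *H2-Oa* and *H2-Ob*, described below, and of *H2-Eb2*, which had 0 to 6 counts per population. Searched on both strands, ATTGG was in 37.4% of all 32851 promoter windows of 300 bases, TGACG in 20.8%, GNAAC in 84.8%, and the ordered pair in 4.13%. The ordered pairs named above were taken on the gene's own strand only, so the 4.13% comes from a wider search. A gamma-activated site, TTC and GAA 3 letters apart, was found in *H2-DMb2* alone of these 5 members, 218 bases before its start, and in 8.3% of all windows. The spacing of the pair was chosen after these sequences were seen, and a match describes the letters and not a bound site.

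The class II chains and the invariant chain had their highest levels in CD62L-high CMPs. *Cd74* (chromosome 18, 60803848 to 60812652, plus strand) was at 92.5, 159.5 and 168 CPM in CD62L-high CMPs (replicates 1, 2 and 3), a mean of 140 ± 41.4 CPM (SD, n = 3). Bulk CMPs held 50.9, 28.4 and 55.4 CPM, and CD62L-neg CMPs 2.54, 2.17 and 0.541 CPM. The 3 CMP populations did not overlap. All GMP populations were below the bulk CMPs, with 3.18, 6.87 and 3.13 CPM in bulk GMPs, 3.75, 3.38 and 1.44 in CD62L-neg GMPs and 4.43, 6.18 and 9.19 in CD62L-int GMPs. CD62L-high GMPs were the highest and most uneven of the GMPs, with 5.47, 12.6 and 24.0 CPM. From CD62L-high GMPs downward, the libraries of each population overlapped those of the next in order of level (CD62L-int, bulk and CD62L-neg GMPs, then CD62L-neg CMPs).

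*H2-Aa* (34282744 to 34287823, minus strand), the alpha chain of I-A, was at 55.4, 68.4 and 98.1 CPM in CD62L-high CMPs, and CD62L-neg CMPs held 2.79, 0 and 0.406 CPM. Bulk CMPs lay between them, at 28.4, 35.9 and 23.9 CPM, with no overlap on either side. In GMPs the levels ran from 1.20 CPM in a CD62L-neg library to 11.3 CPM in CD62L-high replicate 3, and neighbouring populations overlapped. For both genes, every bulk CMP library was above every GMP library.

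*H2-Ab1* (34257689 to 34269419, plus strand), the beta chain of I-A, followed this order in CMPs but not its depth. It was at 71.0, 119.3 and 145.5 CPM in CD62L-high CMPs. Bulk CMPs held 55.6, 39.2 and 59.7 CPM, and CD62L-neg CMPs still held 17.8, 16.7 and 14.1 CPM. The CD62L-neg CMPs were 14.5% of the level in CD62L-high CMPs for this gene, against 1.25% for *Cd74* and 1.44% for *H2-Aa*. In GMPs it was at 13.5, 15.01 and 8.33 CPM in CD62L-neg and 4.82, 12.2 and 26.2 CPM in CD62L-high libraries, which overlap completely. CD62L-int GMPs held 8.19 to 8.71 CPM and bulk GMPs 7.10 to 9.63 CPM.

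*H2-Eb1* (34305867 to 34316674, plus strand), the beta chain of I-E, was at 19.8, 36.4 and 40.3 CPM in CD62L-high CMPs, far from the 1.70, 0.255 and 0.406 CPM of CD62L-neg CMPs. Bulk CMPs were at 12.1, 3.59 and 14.5 CPM, and the low value was in replicate 2. GMP libraries lay between 0.455 and 7.70 CPM, again with CD62L-high replicate 3 at the top. The partner gene *H2-Ea-ps*, the alpha chain of I-E, is annotated as a pseudogene in the reference and had no count in any of the 21 libraries.

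*Ciita* (chromosome 16, 10480059 to 10528418, plus strand), the co-activator, had the lowest mean CPM of the members in CD62L-neg CMPs and every GMP population. In CD62L-high and bulk CMPs the mean of *H2-DMb2* was lower (5.48 and 2.11 CPM, against 9.29 and 2.23 CPM). *Ciita* was at 6.96, 7.11 and 13.8 CPM in CD62L-high CMPs and at 1.34, 2.99 and 2.35 CPM in bulk CMPs, with no overlap. CD62L-neg CMPs held 4 counts of it in all, each in replicate 1, and CD62L-neg GMPs also held 4, each in replicate 3. The 15 counts of CD62L-int GMPs were all in replicate 3. CD62L-high GMPs were at 0.408, 0.667 and 2.14 CPM and bulk GMPs at 0.0758, 0.386 and 0.764 CPM. CD62L-high and CD62L-neg GMPs did not overlap, and the other pairs of GMP populations did.

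**Figure D1:**
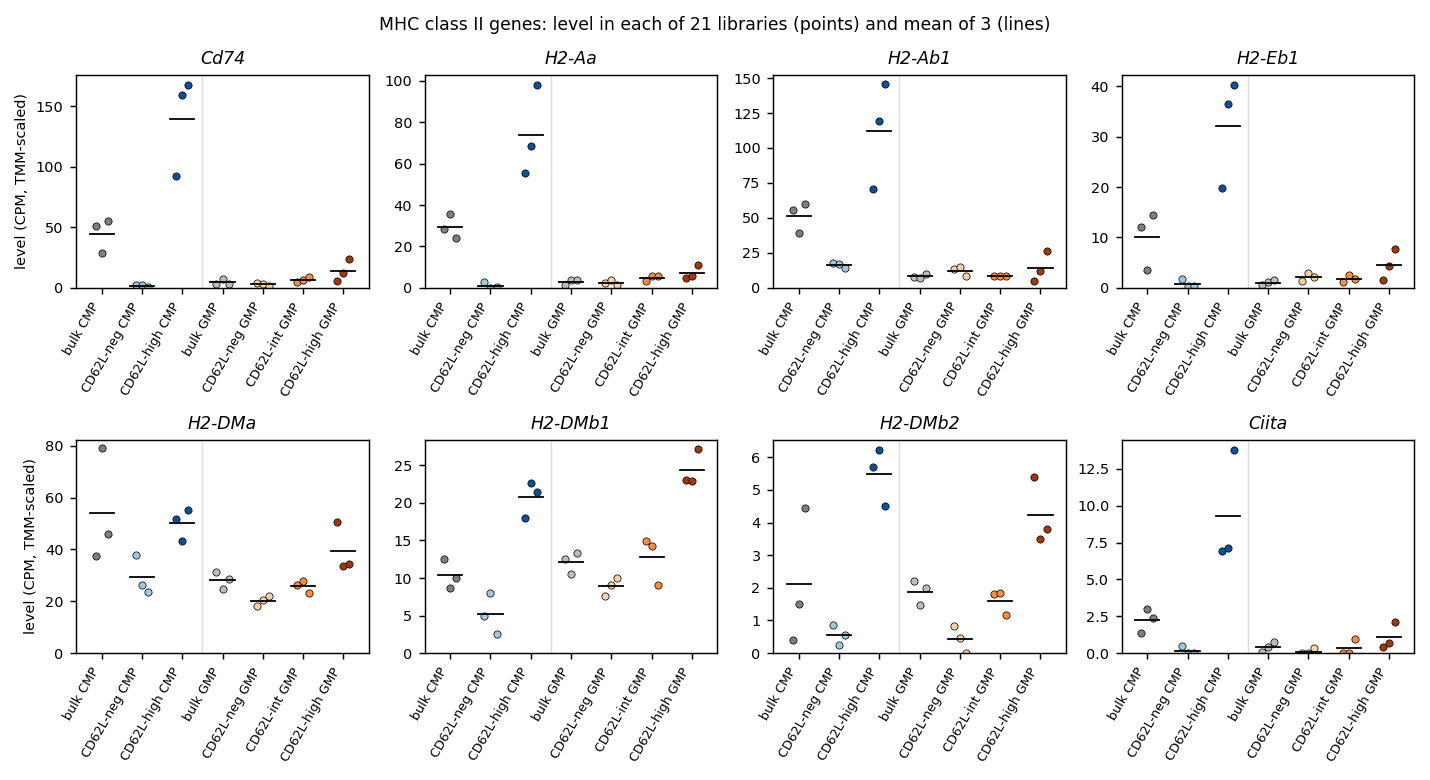
Level of each member (CPM, TMM-scaled, linear axes from 0) in the 3 libraries of 7 populations, with points for libraries and lines for means. For *Cd74*, *H2-Aa*, *H2-Ab1*, *H2-Eb1* and *Ciita* the 3 CD62L-high CMP libraries stand above all 18 others, whereas the means of the *H2-DM* genes in CD62L-high GMPs are 77.3% to 118% of those in CD62L-high CMPs.

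The H2-DM genes had another order. *H2-DMa* (34119541 to 34139101, plus strand), the alpha chain of DM, was present everywhere, at 51.9, 43.2 and 55.3 CPM in CD62L-high CMPs. Bulk CMPs held 37.5, 79.2 and 45.8 CPM and the CD62L-neg fraction 37.8, 26.2 and 23.7 CPM. The highest of the 21 values belonged to bulk CMP replicate 2, the library with 61.0% of its counts in 3 gene models. CD62L-high GMPs were at 50.5, 33.6 and 34.4 CPM, and their highest value was in replicate 1, the other library with a raised share. CD62L-neg GMPs were lowest, at 18.0, 20.4 and 22.0 CPM, below all CD62L-int GMPs (23.4 to 28.0 CPM) and bulk GMPs (24.6 to 31.3 CPM).

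*H2-DMb1* (34153072 to 34160230, plus strand), a beta chain of DM, was highest in CD62L-high GMPs, at 23.0, 22.9 and 27.2 CPM, just above CD62L-high CMPs at 18.0, 22.7 and 21.5 CPM. Both stood above all other libraries, of which the next was a CD62L-int GMP at 14.96 CPM. The lowest values were in CD62L-neg CMPs, at 4.96, 8.04 and 2.57 CPM. *H2-DMb2* (34143307 to 34151555, plus strand), the other beta chain gene, was at 5.69, 6.22 and 4.51 CPM in CD62L-high CMPs and at 5.39, 3.49 and 3.82 CPM in CD62L-high GMPs, which overlapped. It was under 0.85 CPM in every CD62L-neg library of CMPs or GMPs and most uneven in bulk CMPs, at 0.402, 1.495 and 4.44 CPM. *H2-DMb1* and *H2-DMb2* share 22.7% and 21.2% of their 50-base transcript windows, so reads from these stretches could be left out or split between the 2 genes. The other members share no such window with each other.

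To set different genes side by side, levels were taken per kilobase of annotated exon, pooled over all transcripts of a gene. Expressed transcripts can be shorter than this by unlike amounts, so the order of genes is rough. By this measure *Cd74* was the most abundant member in CD62L-high CMPs, at 83.4 ± 24.6 CPM per kb (SD, n = 3). *H2-Ab1* followed at 43.6 ± 14.7 CPM per kb. The ranges of mean ± SD overlapped among *H2-Aa*, at 19.5 ± 5.77, *H2-Eb1*, at 16.6 ± 5.59, *H2-DMa*, at 14.5 ± 1.82, and *H2-DMb1*, at 12.3 ± 1.44 CPM per kb. *Ciita* was at 0.974 ± 0.409 CPM per kb. In CD62L-high GMPs the order of means was different, since *H2-DMb1*, at 14.5 ± 1.45, and *H2-DMa*, at 11.4 ± 2.76 CPM per kb, were at the top. The range of *Cd74*, at 8.36 ± 5.58, overlapped both, and that of *H2-Ab1*, at 5.60 ± 4.23, overlapped that of *H2-DMa*. In CD62L-neg CMPs *H2-DMa*, at 8.47 ± 2.18, and *H2-Ab1*, at 6.31 ± 0.75 CPM per kb, were far above *Cd74*, at 1.04 ± 0.634 CPM per kb.

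Within CMPs, the comparison of CD62L-high with CD62L-neg cells asks how the fractions of 1 gate differ. Of the 8 members, 7 were called higher in CD62L-high CMPs and none lower (adjusted p under 0.05 and fold over 2, edgeR). Of all 14801 genes tested, 10.5% were called in either direction and 5.62% higher. The median log2 fold change of the members was 4.30, against 0.01 over all genes. *Cd74* rose by a log2 fold change of 6.29 ± 0.56 (SE), 78.4-fold, and *H2-Aa* by 6.07 ± 0.63. *Ciita* rose by 5.71 ± 1.31 (adjusted p = 0.0029), *H2-Eb1* by 5.31 ± 0.68 and *H2-Ab1* by 2.79 ± 0.38 (adjusted p = 6.26e-06). The fold changes of *H2-Aa*, *H2-Eb1* and *Ciita* rest on few counts in CD62L-neg CMPs: without replicate 1 of that population they were 8.47, 6.57 and 9.80, and without its replicate 2 that of *H2-Aa* was 5.48.

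Of the peptide exchange genes, *H2-DMb2* rose by 3.29 ± 0.80 (adjusted p = 0.0046) and *H2-DMb1* by 1.99 ± 0.30 (adjusted p = 2.43e-05). *H2-DMa* had a log2 fold change of 0.78 ± 0.23 (adjusted p = 0.0212), under the fold limit, and was called at 1.01 only without CD62L-neg CMP replicate 1. All 8 members had CD62L-high libraries entirely above the CD62L-neg libraries, which 21.1% of all genes tested did.

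Within GMPs, 4 members were called higher in CD62L-high than in CD62L-neg cells and none lower, where 10.5% of all genes were called and 4.49% were higher. The median log2 fold change of the members was 1.52, against -0.04 over all genes. *H2-DMb2* rose by 3.23 ± 0.78 (adjusted p = 0.00472), *Cd74* by 2.30 ± 0.48 (adjusted p = 0.00121) and *H2-DMb1* by 1.45 ± 0.28 (adjusted p = 0.000632). Leaving out CD62L-high GMP replicate 3, the highest library, lowered the change of *Cd74* to 1.65, and leaving out CD62L-neg GMP replicate 1 raised that of *H2-DMb2* to 4.08. *H2-Aa* rose by 1.59 ± 0.53 (adjusted p = 0.0402). This call was lost in DESeq2 (adjusted p = 0.0919) and in the fit of only these populations (adjusted p = 0.0629). It was also lost without any 1 of the CD62L-high CMP libraries (adjusted p from 0.0519 to 0.0572), CD62L-neg GMP replicate 1 (0.11) or 3 (0.178), or CD62L-high GMP replicate 3 (0.218).

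*H2-DMa* had a log2 fold change of 0.97 ± 0.23 (adjusted p = 0.00449) in the same comparison, just under the fold limit, and passed it without CD62L-neg GMP replicate 3 (1.03) or CD62L-high GMP replicate 2 (1.05) or 3 (1.04). *Ciita* had one of 3.24 ± 1.29 (adjusted p = 0.0931), which was called in DESeq2 (adjusted p = 0.043) and without CD62L-neg GMP replicate 3 (6.67). The change was 1.07 ± 0.56 for *H2-Eb1* (adjusted p = 0.222) and 0.24 ± 0.37 for *H2-Ab1* (adjusted p = 0.738). In 6 of the 8 members, all but *H2-Ab1* and *H2-Eb1*, the CD62L-high libraries lay entirely above the CD62L-neg libraries, which 15.2% of all genes tested did. The 95% interval for *H2-Ab1* ran from -0.52 to 1, and without CD62L-high GMP replicate 3 its sign turned, to -0.53.

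The effect of CD62L level was compared between CMPs and GMPs in an interaction term. The 2 I-A chains, the I-E beta chain and the invariant chain had a smaller effect in GMPs than in CMPs, by 3.99 ± 0.72 for *Cd74* (adjusted p = 0.00074), 4.48 ± 0.82 for *H2-Aa*, 4.24 ± 0.87 for *H2-Eb1* and 2.55 ± 0.52 for *H2-Ab1* on the log2 scale. Of all genes tested, 7.35% passed in either direction and 5.05% in this one. The H2-DM genes did not pass: the difference was 0.19 for *H2-DMa* (95% interval -0.48 to 0.87), -0.54 for *H2-DMb1* (-1.38 to 0.29) and -0.06 for *H2-DMb2* (-2.61 to 2.5). That of *Ciita* was -2.47 with a wide interval (-6.72 to 1.79), which holds 0.

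No member was called between CD62L-int GMPs and either of the other CD62L fractions of GMPs. Against CD62L-neg GMPs, where 4.32% of all genes were called, *Cd74* had the log2 fold change 1.20 ± 0.49 (adjusted p = 0.182) and *H2-DMb2* 1.84 ± 0.77 (adjusted p = 0.206). In that comparison 2 members had an unadjusted p under 0.05 in edgeR, and DESeq2 called 0. The share of all genes at this unadjusted limit is not given, so this count and those like it below have no background to be read against. Of CD62L-high against CD62L-int GMPs, where 1.22% of all genes were called, *H2-DMb1* came nearest, at 0.93 ± 0.28 (adjusted p = 0.0892). There 5 members had an unadjusted p under 0.05 in edgeR. DESeq2 again called 0, with *H2-DMb1* at 0.93 (adjusted p = 0.0229) under the fold limit. Without bulk CMP replicate 2 and CD62L-high GMP replicate 1, 3 members were called higher in CD62L-high than in CD62L-int GMPs, namely *Cd74* (1.47), *H2-Eb1* (1.72) and *H2-Ab1* (1.18), and *Cd74* was called higher in CD62L-int than in CD62L-neg GMPs (1.20). CD62L-neg and bulk GMPs also had no member called, where 4.07% of all genes were. In that comparison 2 had an unadjusted p under 0.05 in edgeR, and DESeq2 called *H2-DMb2*, at -2.08.

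Across the CD16/32 gate, bulk GMPs were compared with bulk CMPs. The 4 members *Cd74*, *H2-Aa*, *H2-Ab1* and *H2-Eb1* were called lower in bulk GMPs and none higher, where 11.5% of all genes were called and 7.3% were lower. *Cd74* fell by 3.37 ± 0.47 on the log2 scale (adjusted p = 1.42e-05), *H2-Eb1* by 3.33 ± 0.62, *H2-Aa* by 3.32 ± 0.53 and *H2-Ab1* by 2.65 ± 0.38. *H2-DMa* had a change of -0.93 ± 0.23 (adjusted p = 0.00628), under the fold limit, and was called in DESeq2 and with RLE scaling (-1.01 in both) and without bulk CMP replicate 1 (-1.13) or 3 (-1.03) or bulk GMP replicate 1 (-1.01). Without bulk CMP replicate 2 and CD62L-high GMP replicate 1 it was -0.58. *Ciita* had one of -2.39 ± 1.13 (adjusted p = 0.142), which was called without the filter on low counts (adjusted p = 0.0382). *H2-DMb1*, at 0.20, and *H2-DMb2*, at -0.19, had intervals of -0.40 to 0.80 and -1.69 to 1.30.

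The CD62L-high fractions were also compared across this gate, although their CD62L limits were set within each population and surface levels need not match. In CD62L-high GMPs against CD62L-high CMPs, *Cd74*, *H2-Aa*, *H2-Ab1* and *H2-Eb1* were again the 4 members called lower, where 7.64% of all genes were called and 5.11% were lower. *H2-Aa* fell by 3.34 ± 0.50 (adjusted p = 4.69e-05), *Cd74* by 3.31 ± 0.44, *H2-Ab1* by 2.95 ± 0.38 and *H2-Eb1* by 2.81 ± 0.55 on the log2 scale. In other terms, CD62L-high GMPs held 10% of the *Cd74* level of CD62L-high CMPs, 9.82% of that of *H2-Aa*, 12.9% of *H2-Ab1* and 14.1% of *H2-Eb1*. For the H2-DM genes the shares were 78.7% for *H2-DMa*, 118% for *H2-DMb1* and 77.3% for *H2-DMb2*. Their log2 differences were -0.35 (95% interval -0.82 to 0.13), 0.23 (-0.33 to 0.80) and -0.37 (-1.77 to 1.02). Without CD62L-high GMP replicate 3 the changes of *Cd74*, *H2-Ab1* and *H2-Eb1* were larger, at -3.96, -3.73 and -3.45.

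*Ciita* stood at 11.6% of its CD62L-high CMP level in CD62L-high GMPs, a log2 difference of -3.09 ± 1.05 (adjusted p = 0.0566) that missed the threshold, while its libraries did not overlap. DESeq2 called it (adjusted p = 0.023), as did the fit of only these populations (adjusted p = 0.00683) and that without bulk CMP replicate 2, CD62L-neg GMP replicate 3, CD62L-high GMP replicate 3 or any 1 of the CD62L-int GMP libraries (adjusted p from 0.0267 to 0.0498). Between the CD62L-neg fractions of GMPs and CMPs no member was called, where 12.6% of all genes were. There 2 members, *H2-DMa* and *H2-DMb1*, had an unadjusted p under 0.05 in edgeR, and DESeq2 called 0. *H2-Aa* (3.54) and *H2-Eb1* (2.67) were called higher in CD62L-neg GMPs without CD62L-neg CMP replicate 1, and *H2-DMb1* (1.21) without its replicate 2. Several of these comparisons share libraries, so their values stand side by side and do not add to each other.

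**Figure D2:**
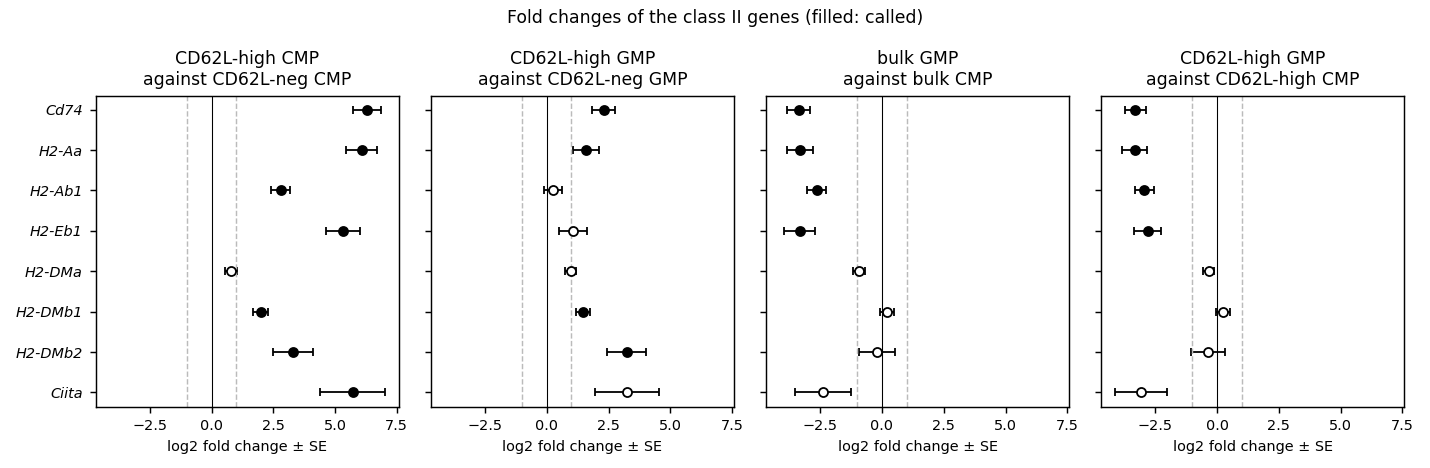
Log2 fold changes of the 8 members (points, with SE as bars) in 4 comparisons, of CD62L-high against CD62L-neg CMPs and GMPs and of GMPs against CMPs for the bulk and the CD62L-high populations. Filled points passed the adjusted p and the fold limit, which is drawn as dashed lines. The 4 filled points at the left of the last 2 panels are *Cd74*, *H2-Aa*, *H2-Ab1* and *H2-Eb1*, while the *H2-DM* genes lie between -0.93 and 0.23 there.

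Other genes of the class II region were read beside the members. Between *H2-DMa* and *H2-Eb2* it holds 12 protein-coding genes, of which 6 are members and 5 others were tested: *Psmb9*, *Tap1*, *Psmb8* and *Tap2*, which serve class I presentation, and *H2-Ob*. None of these 5 was called between CD62L-high and CD62L-neg CMPs, where 10.5% of all genes were, with log2 fold changes from -0.49 (*H2-Ob*) to 0.86 (*Psmb8*). Between CD62L-high GMPs and CMPs, *Tap2*, at -1.03, and *H2-Ob* were called lower, as were 5.11% of all genes. The antisense gene model *Gm20513* overlaps *H2-Eb1*. It did not pass the filter, and whether strand was used in counting is not given in the sources used here.

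*H2-Oa* and *H2-Ob* encode DO, a modulator of DM, and were lower in CD62L-high cells where they were called between the CD62L-high and CD62L-neg fractions. *H2-Oa* was at 10.8, 13.5 and 11.5 CPM in CD62L-neg CMPs, and CD62L-high CMPs held 3.16, 6.10 and 5.38 CPM, a fall of 1.28 ± 0.37 on the log2 scale (adjusted p = 0.0181) with no overlap. *H2-Ob* was at 18.7 ± 3.36 CPM (SD, n = 3) in CD62L-high and 26.4 ± 10.9 CPM in CD62L-neg CMPs, and was not called. In GMPs it was at 7.03 ± 2.97 CPM in CD62L-neg and 2.54 ± 0.763 CPM in CD62L-high cells and fell by 1.46 ± 0.40. It was lower in GMPs than in CMPs by 3.42 ± 0.41 between the bulk and 2.87 ± 0.40 between the CD62L-high populations. The other 2 genes of this list of 4, *H2-Eb2* and *H2-Ea-ps*, did not pass the filter.

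CIITA binds RFX, CREB and NF-Y at class II promoters. None of the 7 genes for RFX (*Rfx5*, *Rfxap*, *Rfxank*), CREB1 (*Creb1*) and NF-Y (*Nfya*, *Nfyb*, *Nfyc*) was called in any of the 8 comparisons or in the interaction. *Rfx5*, for example, had means of 34.96, 43.95 and 35.23 CPM in CD62L-high CMPs, CD62L-neg CMPs and CD62L-high GMPs. For CD62L-high against CD62L-neg CMPs the log2 fold changes of the 7 had a median of -0.20.

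Among 8 regulators upstream of *Ciita*, 3 were called higher and 1 lower in CD62L-high than in CD62L-neg CMPs. Of all genes tested, 5.62% were called higher there and 10.5% in either direction. *Irf8*, a transcription factor of monocytes and dendritic cells, was at 738.5, 597.1 and 596.4 CPM against 24.5, 7.41 and 6.76 CPM, a rise of 5.63 ± 0.36. *Spi1*, which encodes PU.1, rose by 1.79 ± 0.20 and *Ifngr2*, an interferon gamma receptor chain, by 2.39 ± 0.32, whereas *Ifngr1*, the other chain, fell by 1.20 ± 0.15. In CD62L-high against CD62L-neg GMPs, *Irf8*, with a rise of 5.31 ± 0.35, and *Ifngr2*, with a rise of 1.14 ± 0.29, were called. *Irf8* was at 787.2, 746.9 and 719.5 CPM in CD62L-high GMPs, a difference of 0.22 ± 0.28 from CD62L-high CMPs (adjusted p = 0.706). *Ifngr1* was the sole gene of this list called between them, 1.21 ± 0.15 higher in GMPs. CD62L-high GMPs had the highest mean of *Irf8* among the 7 populations, with libraries that overlapped those of CD62L-high CMPs. Their *Cd74* was 10% of that of CD62L-high CMPs. The part of *Irf8* in the levels of *Cd74* was not tested.

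Of 8 genes of endosomal processing, 6 were called higher in CD62L-high than in CD62L-neg CMPs and none lower, where 5.62% of all genes were higher. By level the first 4 were *Ctsz*, with a rise of 1.60 ± 0.18, *Ctsb*, with 1.45 ± 0.18, *Ctss*, with 5.79 ± 0.45, and *Ctsh*, with 6.16 ± 0.37. *Ctss* encodes cathepsin S, which cleaves the invariant chain, and the others encode cathepsins Z, B and H. In GMPs 4 of the 8 were called higher in CD62L-high than in CD62L-neg cells, where 4.49% of all genes were, and *Ctss* rose by 6.65 ± 0.46. *Ctss* was at 77.3, 56.2 and 57.3 CPM in CD62L-high CMPs and at 68.4, 62.6 and 59.8 CPM in CD62L-high GMPs, which overlapped. Here *Ctsb*, 1.02 ± 0.17, and *Ctsh*, 1.18 ± 0.23, were called higher in CD62L-high GMPs and none of the 8 was called lower. *Lgmn*, which encodes an endosomal protease, was at 6.26 ± 2.15 CPM (SD, n = 3) in CD62L-high CMPs and had 1.62 ± 0.832 CPM in CD62L-high GMPs, without overlap but not called (log2 difference -1.95 ± 0.73, adjusted p = 0.0895).

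Of 6 genes of co-stimulation and class II turnover, 5 passed the filter. *March1*, a ubiquitin ligase that removes class II protein from the surface, rose by 5.29 ± 0.97 in CD62L-high against CD62L-neg CMPs, from 0.18 to 7.19 CPM, and *March8*, a related ligase, fell by 1.36 ± 0.29. In GMPs, *Cd86*, a ligand of CD28, rose by 4.70 ± 0.89, from 0.158 to 4.34 CPM. *Cd83*, an activation marker of dendritic cells that holds class II protein at the surface, had no count in CD62L-neg GMPs and 32 in CD62L-high GMPs. This is at least 10-fold higher when 3 counts are taken as the floor of the 3 libraries together. The CD62L-high GMP libraries ranged from 0.0817 to 1.88 CPM of *Cd83*, so this bound rests mostly on 1 library. *Cd86* and *Cd83* stayed under 5 CPM in all populations by their means.

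None of the 9 genes of class I presentation was called in CD62L-high against CD62L-neg CMPs or GMPs, where 10.5% of all genes were in each. Their median log2 fold change was -0.17 in CMPs and 0.11 in GMPs. Their summed level was 1864 to 2011 CPM in CD62L-high CMPs, with 2121 to 2330 CPM in the CD62L-neg fraction. *Nlrc5*, the class I counterpart of *Ciita*, had a log2 fold change of -0.48 ± 0.21 (adjusted p = 0.138) in CMPs and of 0.88 ± 0.22 (adjusted p = 0.00505), under the fold limit, in GMPs. *Psmb8*, at 0.86 in CMPs (adjusted p = 4.84e-05), was also under the fold limit. In the interaction, 1 of the 9 passed as higher and 2 as lower, where 7.35% of all genes passed. Between the CD62L-neg fractions of GMPs and CMPs 1 of the 9 was called, lower in GMPs, where 12.6% of all genes were called.

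**Figure D3:**
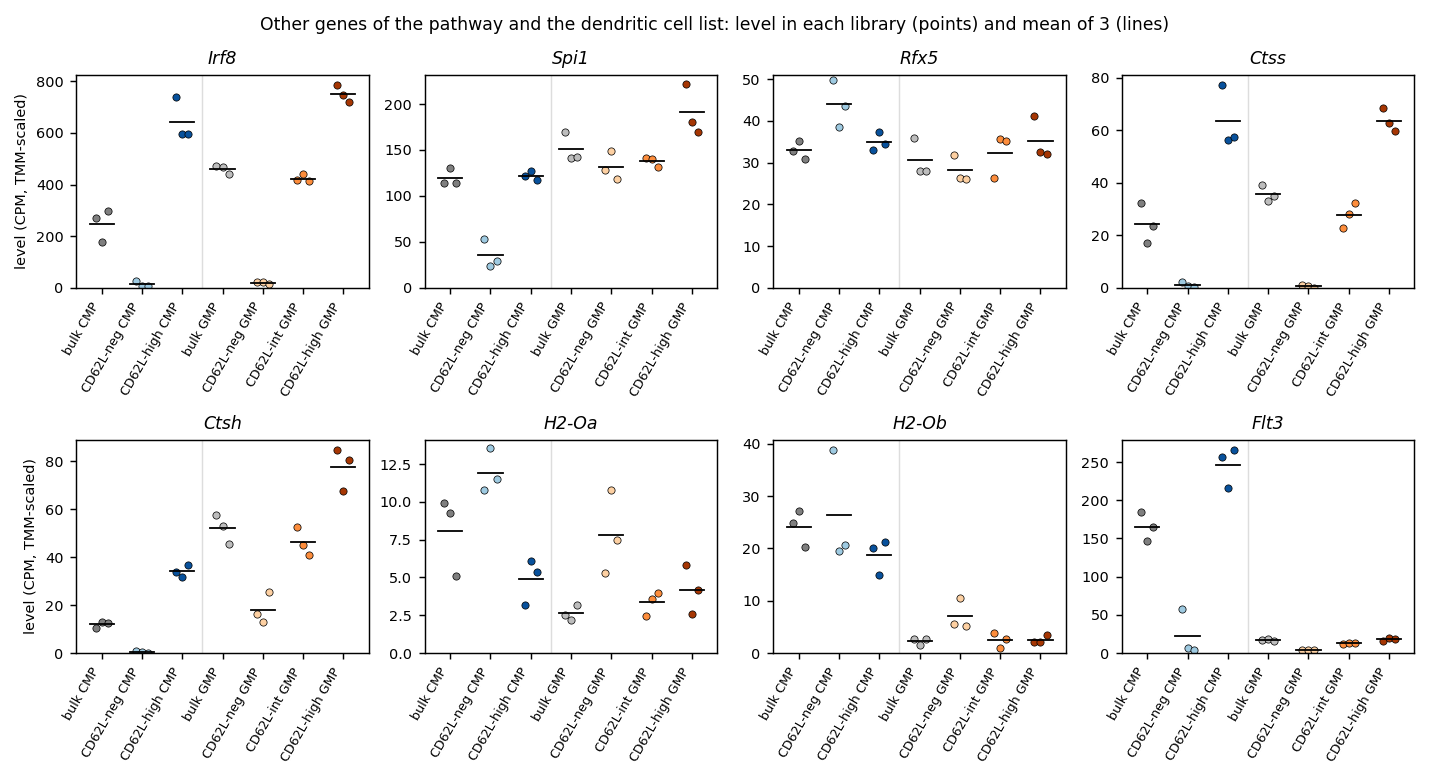
Level (CPM, TMM-scaled, linear axes from 0) of 7 genes of the class II pathway and of *Flt3* in the 3 libraries of 7 populations, with points for libraries and lines for means. *Irf8* and *Ctss* overlap between CD62L-high CMPs and CD62L-high GMPs and are low in both CD62L-neg populations, and *H2-Ob* and *Flt3* are lower in every GMP library than in bulk and CD62L-high CMPs.

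Markers of other cell types were read beside these results. Of 8 markers of conventional dendritic cells, 5 passed the filter, 3 of them were called higher in CD62L-high than in CD62L-neg CMPs, and 3 (*Flt3*, *Itgax* and *Clec9a*) were called lower in CD62L-high GMPs than in CD62L-high CMPs. Of all genes tested, 5.62% were higher in the first comparison and 5.11% lower in the second. The summed level of all 8 markers was 244.2 to 296.0 CPM in CD62L-high CMPs, 150.7 to 196.9 in bulk CMPs, 6.08 to 64.1 in CD62L-neg CMPs, and between 3.61 and 22.3 over all GMP libraries. Most of this was *Flt3*, the receptor of FLT3 ligand, which early progenitors also express, at 246.4 CPM in CD62L-high CMPs but 18.5 CPM in CD62L-high GMPs. *Clec9a*, a marker of dendritic cells and their precursors, was at 11.5, 10.5 and 10.5 CPM in CD62L-high CMPs and had 2 counts in CD62L-neg CMPs (ratio 126, 95% counting interval 34.8 to 1050). *Batf3* was at 2.87 CPM in CD62L-high CMPs and had no count in CD62L-neg CMPs, while *Xcr1*, *Cd209a* and *Ccr7* had means below 1 CPM in all populations. In CMPs the sum was ordered as *Cd74* was. Its range in CD62L-neg CMPs (6.08 to 64.1 CPM, mean 26.4) held that of CD62L-high GMPs (17.5 to 22.3 CPM, mean 20.4). *Cd74* did not overlap between these 2 populations (at most 2.54 and at least 5.47 CPM). The overlap of the sums and the mean of 26.4 CPM rest on 1 library, CD62L-neg CMP replicate 1, through its *Flt3*. The part of these markers in the levels of *Cd74* was not tested. Within CD62L-neg CMPs, replicate 1 held the most *Flt3* (57.5 CPM, against 7.28 and 4.06), the most *Irf8* and the most *Cd74*, *H2-Aa*, *H2-Eb1* and *Ciita*.

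*Siglech*, a marker of plasmacytoid dendritic cells, was at 2.04 CPM in CD62L-high CMPs and had no count in any GMP population. The 5 markers of this type summed to 116.7 to 137.5 CPM in CD62L-high CMPs, 66.8 to 73.8 CPM in the CD62L-neg fraction, with 40.9 to 59.2 CPM over all GMP libraries, mostly from *Tcf4*. For B cells, *Ms4a1* was at 0 and *Cd79a* and *Pax5* had means under 0.2 CPM in all populations, whereas *Cd79b* had means of 7.07 to 15.5 CPM in all of them. The summed list of 8 (159.6 to 203.7 CPM in CD62L-high CMPs, 149.7 to 232.4 in CD62L-high GMPs and 7.03 to 22.3 in CD62L-neg CMPs) was mostly *Ighm*. The 5 T and NK cell markers summed to at most 0.401 CPM in any library. All 6 monocyte markers were called higher in the CD62L-high fraction of both CMPs and GMPs (5.62% and 4.49% of all genes were). Their sum was 2673 to 3135 CPM in CD62L-high GMPs, with 1116 to 1393 CPM in CD62L-high CMPs. Between these populations 1 of the 6, *Ly6c2*, was called (higher in GMPs, 2.96 ± 0.21), where 7.64% of all genes were. Most of both sums was *F13a1*, at 1478 and 742.7 CPM, with a log2 difference of 0.99 ± 0.20 that was just under the fold limit. Macrophage genes *C1qa*, *C1qb*, *C1qc* and *Mertk* had means under 1 CPM in all populations, and the list of 7 summed to 4.73 to 8.72 CPM in CD62L-neg CMPs, to 28.6 to 29.7 CPM in CD62L-high CMPs, while reaching 42.9 to 59.9 CPM in the CD62L-high GMPs and 56.4 to 75.4 CPM in the CD62L-neg GMPs, there mostly from *Vcam1* (47.2 CPM).

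How alike the members' patterns were is given by Pearson's r of log2(CPM + 4) over the 21 libraries, which are 7 populations of 3 and so not independent points. With *Cd74*, r was 0.976 for *H2-Aa*, 0.961 for *H2-Eb1*, 0.914 for *Ciita* and 0.912 for *H2-Ab1*. For *H2-DMa* it was 0.691, for *H2-DMb2* 0.681 and for *H2-DMb1* 0.547. Without the CD62L-high CMPs, over 18 libraries, r with *Cd74* was 0.94 for *H2-Aa*, 0.90 for *H2-Eb1*, 0.85 for *Ciita* and 0.78 for *H2-Ab1*, and 0.61 for *H2-DMa*, 0.41 for *H2-DMb2* and 0.36 for *H2-DMb1*. *H2-DMb1* and *H2-DMb2*, which share part of their sequence, had r = 0.75 with each other over all libraries and 0.69 without the CD62L-high CMPs.

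**Figure D4:**
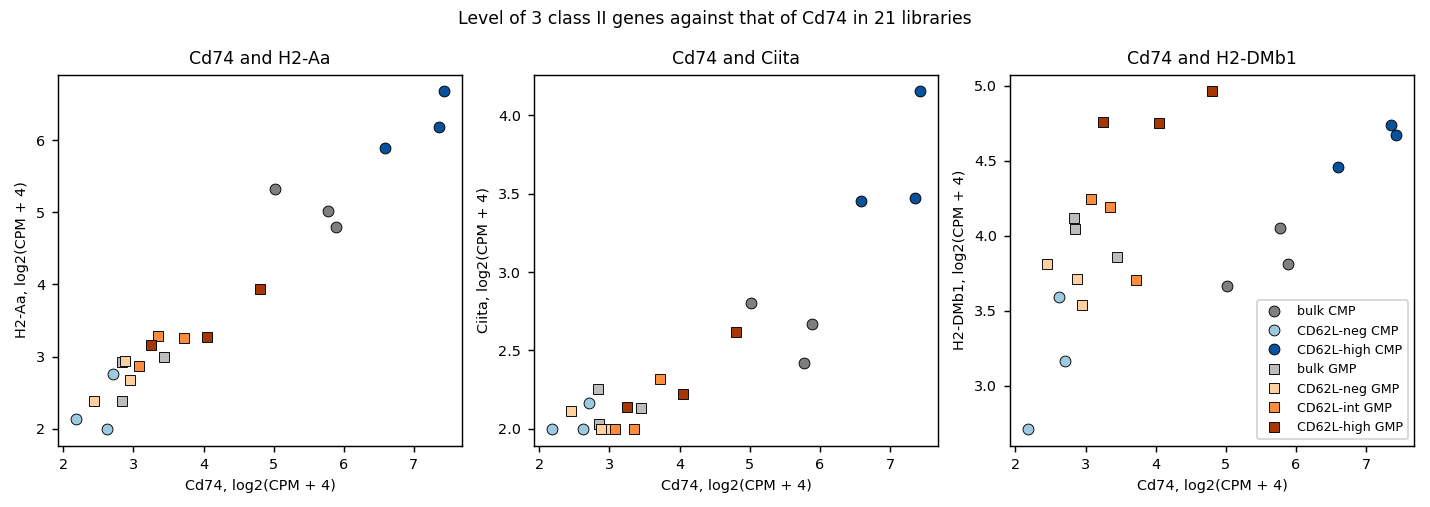
Log2(CPM + 4) of *H2-Aa*, *Ciita* and *H2-DMb1* against that of *Cd74* in 21 libraries (circles for CMPs, squares for GMPs, colours for populations). *H2-Aa* and *Ciita* rise with *Cd74* over CMPs and GMPs together. In the panel of *H2-DMb1* the 3 CD62L-high GMP libraries lie at the top left, with *H2-DMb1* at 22.9 to 27.2 CPM and *Cd74* at 5.47 to 24.0 CPM.

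Of the genes that are no members and no gene models, the 10 with the pattern most like *Cd74* were *Plbd1* (r = 0.965), *Id2* (0.941), *Coro2a* (0.938), *Mycl* (0.931), *P2ry10* (0.924), *Lsp1* (0.922), *Kcng1* (0.919), *L1cam* (0.918), *Ifi205* (0.916) and *Wdfy4* (0.909), over the same 21 libraries and as a description. *Id2* and *Mycl* encode regulators of transcription known from dendritic cells, and *Wdfy4* is known for cross-presentation there. The others of the 10 were not assigned to a cell type. *Plbd1* was at 38.07 ± 10.99 CPM (SD, n = 3) in CD62L-high CMPs, 10.1 ± 2.30 in bulk CMPs and 0.323 ± 0.559 in CD62L-neg CMPs. Its mean lay between 0.535 and 3.26 CPM in the GMP populations. *Wdfy4* was expressed throughout, from 196.2 ± 3.001 CPM in CD62L-int GMPs to 396 ± 50.2 CPM in CD62L-high CMPs, a narrower range of levels than that of *Plbd1*.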

How the data were processed

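RNA-seq was performed on 7 progenitor populations of mouse bone marrow, with 3 libraries each. The deposited table holds raw counts per gene, which the authors made from mm10 alignments (Trim Galore, HISAT2, HTSeq). The methods name SMART-Seq and the labels a SMARTer stranded kit. The study left out a bulk CMP library with a low mapping rate without naming it, so all 3 were used.

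After TMM scaling and edgeR's filter on low counts, 14801 of 47643 genes were tested in 1 fit of all 21 libraries with the quasi-likelihood test of edgeR 4.0.16 (R 4.3.3), which was tested on simulated data first. A call needed an adjusted p (Benjamini-Hochberg) below 0.05 plus a fold change above 2, and for the difference between 2 effects the adjusted p alone. Intervals of differences are 95% intervals from the fit. Alternatives were RLE scaling, no filter, DESeq2 1.42.0, a fit of the compared populations only, 3 abundant gene models left out, each library left out, the replicate number as a block, and the adjusted p alone.

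All members are named, and other pathway genes where they were called, at most 4 per list and direction by mean CPM. Marker genes and uncalled pathway genes were picked for naming after their values were seen. The 10 genes named as most like *Cd74* had the highest Pearson correlation with it. The members and the lists were chosen with earlier results of these data known. Total counts were 6145834 to 15263573 per library, so a level of 1 CPM rests on few reads. No source used here states that replicates came from separate mice, so p-values describe the spread of these libraries, and this may be technical. Replicate numbers do not pair the libraries: no comparison had all its same-numbered pairs correlated above 0.1. RefSeq promoter windows covered 5 of the 8 members, and gene positions are from GENCODE (GRCm38). Some genes of the marker lists are not reported here.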

Additional observations from a re-analysis of the deposited data

Results flagged for a closer look

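The effect of CD62L level on 4 members differed between CMPs and GMPs by the test of the difference itself. In CD62L-high against CD62L-neg cells, the log2 change in GMPs minus that in CMPs was -3.99 ± 0.72 (SE) for *Cd74* (edgeR, adjusted p = 0.00074), -4.48 ± 0.82 for *H2-Aa* (adjusted p = 0.000778), -2.55 ± 0.52 for *H2-Ab1* (adjusted p = 0.00236) and -4.24 ± 0.87 for *H2-Eb1* (adjusted p = 0.00254). Each stayed past the threshold whichever of the 21 libraries was left out. Without CD62L-neg CMP replicate 1 the difference was -6.89 for *H2-Aa* and -5.50 for *H2-Eb1*, and without CD62L-high GMP replicate 3 it was -4.63 for *Cd74*, -3.31 for *H2-Ab1* and -4.86 for *H2-Eb1*. The GMP side of each rests on 3 uneven CD62L-high GMP libraries, in which *Cd74* ranged from 5.47 to 24.0 CPM.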

How the results depend on the processing

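Levels did not move by more than 1 SD with RLE scaling or without the filter, in 112 of 112 comparisons of a member's level. Without the filter, 2 members were called for CD62L-int against CD62L-neg GMPs, 1 for CD62L-high against CD62L-int GMPs and 2 for CD62L-neg GMPs against CD62L-neg CMPs, where the reported count was 0 each time. *Ciita* was then also gained for CD62L-high against CD62L-neg GMPs (adjusted p = 0.0093), bulk GMPs against bulk CMPs (0.0382) and CD62L-high GMPs against CD62L-high CMPs (0.00177). DESeq2 called 1 for CD62L-neg against bulk GMPs in place of 0. With bulk CMP replicate 2 and CD62L-high GMP replicate 1 both left out, an alternative chosen after seeing the data, the counts were 1, 3 and 1 in the same order as without the filter, and 6 in place of 4 for CD62L-high against CD62L-neg GMPs. The difference in CD62L effect between GMPs and CMPs for *H2-DMa* then turned to -0.01. The cause of these changes was not tested, and the share of all genes called in these settings is not given here.

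With 1 library left out, the members called were 7 to 8 for CD62L-high against CD62L-neg CMPs, 3 to 5 for CD62L-high against CD62L-neg GMPs, 4 to 5 for bulk and for CD62L-high GMPs against the matching CMPs, and 0 to 2 for CD62L-neg GMPs against CD62L-neg CMPs. They were 4 for the difference in CD62L effect between GMPs and CMPs and 0 for the other 3 comparisons each time. Of all genes, 1303 to 1691 were called for CD62L-high against CD62L-neg CMPs and 1275 to 1687 for CD62L-high against CD62L-neg GMPs. In GMPs against CMPs the numbers were 1329 to 1918 (bulk), 884 to 1245 (CD62L-high) and 1533 to 2007 (CD62L-neg). For the difference in effect 801 to 1742 genes passed. The other 3 comparisons had 512 to 718 (CD62L-int against CD62L-neg GMPs), 87 to 263 (CD62L-high against CD62L-int) and 465 to 716 (CD62L-neg against bulk). Uncalled changes that turned sign ranged, on the log2 scale, from -3.42 to 5.05 (*Ciita*) and from -0.56 to 0.06 (*H2-Eb1*) for CD62L-int against CD62L-neg GMPs, from -4.07 to 3.46 (*Ciita*) and from -1.19 to 0.23 (*H2-DMb2*) for CD62L-neg GMPs against CD62L-neg CMPs, from -0.70 to 0.06 (*H2-Aa*) for CD62L-neg against bulk GMPs, from -0.01 to 1.19 (*H2-Ab1*) for CD62L-high against CD62L-int GMPs, from -0.53 to 0.65 (*H2-Ab1*) for CD62L-high against CD62L-neg GMPs and from -0.71 to 1.15 (*H2-DMb2*) for bulk GMPs against bulk CMPs. For the difference in CD62L effect between GMPs and CMPs they ranged from -6.56 to 0.97 (*Ciita*), from -0.63 to 0.80 (*H2-DMb2*) and from -0.05 to 0.32 (*H2-DMa*).

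With the replicate number as a block, 3 members were called for CD62L-high against CD62L-neg GMPs, since *H2-Aa* was lost (adjusted p = 0.0591), and 5 for CD62L-high GMPs against CD62L-high CMPs, since *Ciita* was gained (adjusted p = 0.026). The numbers do not pair the libraries, whose same-numbered deviations correlated between -0.109 and 0.083. Depth limits *Ciita* and *H2-DMb2* most, with 4 and 13 counts in CD62L-neg CMPs.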
